A study of Arabidopsis thaliana with 12 samples.

Results

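The nuclear genes of 6 plastid ribosomal proteins were followed in Arabidopsis thaliana through the 6 array probes whose annotation names one of them alone. PRPS6 (AT1G64510) and PRPS10 (AT3G13120) belong to the small subunit, and PRPL17 (AT3G54210), PRPL5 (AT4G01310), PRPL34 (AT1G29070) and PRPL29 (AT5G65220) to the large subunit. They are 6 of 691 genes that a probe of the array names alone, among 3439 probes in all, and probes with values of 0 were kept. All 12 samples were wild-type plants of the ecotype Columbia 0, from which total RNA was hybridized. The 6 recovered samples came from plants kept in medium light at 4 °C for 24 h (photoinhibitory conditions, per the labels) and then brought back to 20 °C, again in medium light, for 24 h. The 6 control samples came from plants grown at 20 °C in medium light. No sample from the end of the cold was analysed here, so changes left over from the cold and changes made during recovery cannot be told apart. The labels name no tissue, and the probes of the photosynthesis genes PSBW, LHCB1.5, PSAN and PSBY lay at within-array percentiles of 93.7 to 99.7 on recovered arrays and 84.4 to 99.7 on control arrays.

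Plastids carry a ribosome of bacterial type, which translates the proteins that the plastid genome encodes, among them core subunits of both photosystems and the large subunit of Rubisco. Some of its proteins are encoded in the plastid and the others in the nucleus, and the nuclear ones are made in the cytosol and imported, so both genomes contribute to each subunit. In tobacco the plastid-encoded ribosomal protein L33 is dispensable in normal growth but needed for recovery from chilling.

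Of 41 nuclear-encoded plastid ribosomal proteins in a list of loci, only these 6 had a single-gene probe. None of 21 plastid-encoded ribosomal proteins, none of 11 plastid translation factors and none of 44 further ribosomal proteins named as such in the reference gene table had one. The 6 probes therefore stand for 2 of 14 listed small subunit loci and 4 of 27 listed large subunit loci. The reference gene table lacks the 21 plastid-encoded loci, so a probe for one could be matched only by a locus name in its annotation. Probes that name several genes include 4 of the 11 translation factors, and 1877 of the 3439 probes name no gene. The other members of the plastid ribosome were not analysed here.

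Values were read on 2 scales. The deposited intensity is a linear value in arbitrary units for which no source used here gives the background correction or scaling. The within-array percentile is the position of a probe among all 3439 probes of its own array, from 0 for the dimmest to 100 for the brightest, with equal values sharing their average position. Neither scale compares transcript amounts between genes, because probes differ in how brightly they hybridize. The arrays of the groups differed as a whole. The median probe had an intensity of 0.0971 to 0.128 on recovered arrays and 0.536 to 0.569 on control arrays, and 388 to 564 probes were listed at 0 on recovered arrays, against 154 to 162 on control arrays. The summed intensity of all probes differed less, at 3153 to 3267 on recovered and 3627 to 3745 on control arrays. The median log2 difference of deposited intensity, recovered minus control, was -1.58 over the 2409 probes above 0 on all arrays. This shift was not common to all probes. With these probes cut into 10 parts by brightness, the median was -2.53 in the dimmest part and 0.42 in the brightest. A change of one probe on this scale is therefore read against the shift of all probes and that of probes of like brightness. The labels leave unsaid whether replicates were separate plants or cultures, so each p-value reflects only the scatter among these samples, which may be technical. They also give no hybridization batches, and batch and group cannot be told apart if they coincided.

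The small subunit probes moved up the percentiles of their arrays after recovery, by 52.1 points for PRPS6 and 38.4 points for PRPS10. In deposited intensity PRPS6 did not pass the test, and PRPS10 was lower in recovered samples (log2 difference -0.50). The large subunit probes PRPL17 and PRPL5 had deposited intensities 2.38 and 2.65 times lower in recovered samples, while their percentiles did not pass the test. PRPL34 was detected on all control arrays and listed at 0 on all recovered arrays. PRPL29 was listed at 0 on 5 of 6 recovered arrays and on all 6 control arrays. In such bulk RNA, fewer cells of a type and less RNA per cell cannot be told apart.

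PRPS6 is the counterpart of the bacterial protein S6, which in Escherichia coli sits on the platform of the small subunit. Its deposited intensities were 0.162, 0.118, 0.246, 0.189, 0.225 and 0.219 in recovered samples 1 to 6. In control samples 1 to 6 they were 0.136, 0.153, 0.166, 0.180, 0.133 and 0.171. The groups overlapped, with 4 recovered samples above every control sample and 1 recovered sample, number 2, below every control sample. The mean was 0.193 ± 0.0471 in recovered and 0.156 ± 0.0192 in control samples (SD, n = 6 each), and the log2 difference of 0.27 (SE 0.175) did not pass limma's test (adjusted p = 0.162). Without recovered sample 2 the log2 difference was 0.41 and passed (adjusted p = 0.0154), and without recovered samples 1 and 2 it was 0.49 (adjusted p = 0.00374).

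The position of the PRPS6 probe on its array changed much more. Its percentile was 58.4, 47.3, 71.8, 67.5, 69.9 and 68.9 in recovered samples, against 12.01, 13.1, 12.1, 12.6, 9.51 and 12.1 in control samples. All recovered values lay above all control values. The difference was 52.1 points (SE 3.72, limma adjusted p = 3.03e-07 over 3439 probes), and 99.3% of all probes had a smaller one. The probe thus stood near the dim end of control arrays and above the middle of 5 of the 6 recovered arrays, where most other probes were dimmer.

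PRPS10 is the counterpart of bacterial S10, a protein of the head of the small subunit. It had deposited intensities of 0.241, 0.284, 0.325, 0.365, 0.163 and 0.257 in recovered samples and of 0.349, 0.345, 0.420, 0.409, 0.355 and 0.364 in control samples. Of the recovered samples 5 lay below every control sample, and sample 4 lay inside the control range. The log2 difference was -0.50 (SE 0.173) and passed limma's test (adjusted p = 0.0175), with means of 0.273 ± 0.0704 in recovered and 0.374 ± 0.0324 in control samples (SD, n = 6 each). This call was lost after averaging consecutive samples (adjusted p = 0.0931), with consecutive samples as a random block (adjusted p = 0.0639) and without control samples 3 and 4 (log2 difference -0.42, adjusted p = 0.0808), and without recovered samples 5 and 6 the log2 difference was -0.31 (adjusted p = 0.0492).

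In percentiles PRPS10 went the other way. It stood at 68.8, 72.0, 76.2, 78.1, 62.6 and 71.9 on recovered arrays, against 32.5, 32.1, 36.4, 34.9, 30.9 and 32.2 on control arrays, with no overlap. The difference was 38.4 points (SE 2.36, limma adjusted p = 8.85e-08), larger than that of 95.9% of all probes. Its sign thus depended on the scale: the probe was slightly dimmer in recovered samples and yet brighter than most of the array there.

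**Figure D1:**
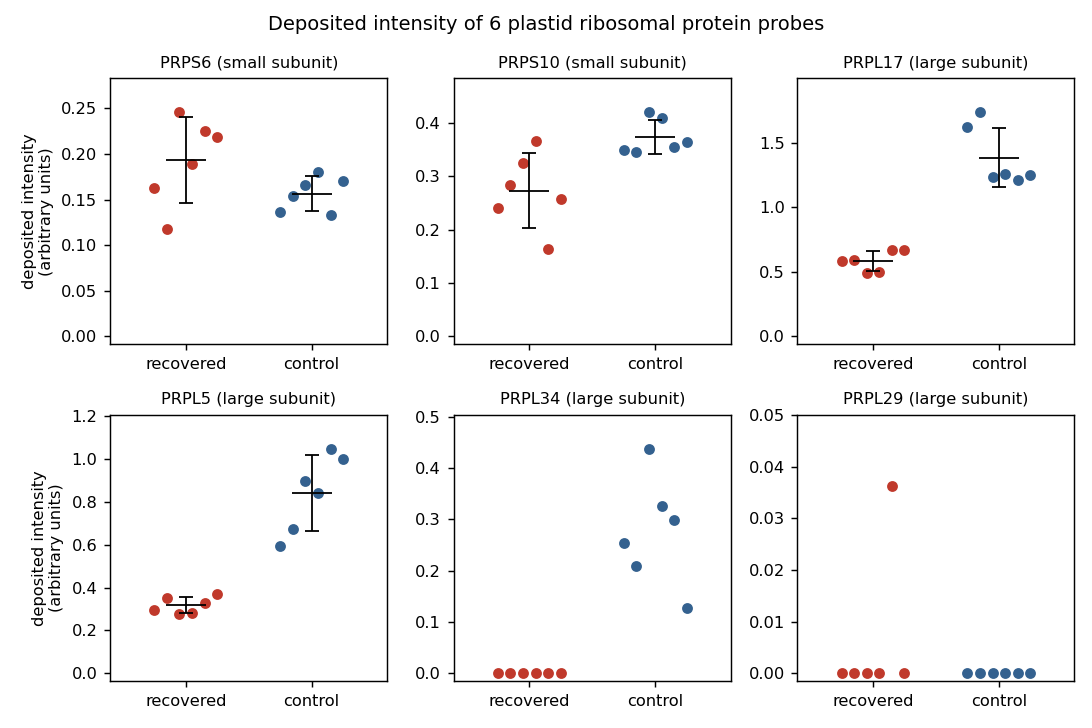
Deposited intensity in arbitrary units (vertical axes, one scale per panel) of each of the 6 probes in the 6 recovered and 6 control samples (points, samples 1 to 6 from left to right), with mean and SD as black bars for the 4 probes above 0 on all arrays. PRPL17 and PRPL5 are lower in every recovered sample than in any control sample, PRPS6 and PRPS10 overlap between groups, and PRPL34 is at 0 in all 6 recovered samples.

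PRPL17 is the counterpart of bacterial L17, which lies on the large subunit near the exit of the peptide tunnel. Its deposited intensities in recovered samples were 0.582, 0.588, 0.491, 0.499, 0.667 and 0.670. In control samples they were 1.62, 1.74, 1.23, 1.26, 1.21 and 1.25. Every recovered sample lay below every control sample. The means were 0.583 ± 0.0777 in recovered and 1.38 ± 0.231 in control samples (SD, n = 6 each). The log2 difference was -1.24 (SE 0.133, limma adjusted p = 2.14e-06).

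The percentile of PRPL17 overlapped between the groups, at 81.9 to 85.7 in recovered and 81.6 to 89.8 in control samples. The difference of -0.70 points (SE 1.70) did not pass limma's test (adjusted p = 0.741). Control samples 1 and 2, at 88.5 and 89.8, lay apart from the other 4 control samples, all between 81.6 and 82.5. Without these 2 samples the difference was 1.66 points (adjusted p = 0.217).

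PRPL5 is the counterpart of bacterial L5, which binds ribosomal RNA in the central protuberance of the large subunit. It had intensities of 0.296, 0.351, 0.277, 0.281, 0.329 and 0.370 in recovered samples, against 0.596, 0.676, 0.897, 0.841, 1.05 and 0.999 in control samples, again with no overlap. The means were 0.318 ± 0.0386 in recovered and 0.843 ± 0.178 in control samples (SD, n = 6 each), and the log2 difference was -1.39 (SE 0.153, limma adjusted p = 2.90e-06).

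The percentile of PRPL5 was 73.3 to 77.9 in recovered and 54.4 to 76.9 in control samples. The difference of 7.84 points (SE 3.49) did not pass limma's test (adjusted p = 0.0686). Control samples 1 and 2 had the lowest positions here, at 54.4 and 60.0, whereas they had the highest for PRPL17. The test was passed without control sample 5 (9.72 points, adjusted p = 0.0269), without control sample 6 (9.27 points, adjusted p = 0.0434) and without both (11.98 points, adjusted p = 0.00811), and without control samples 1 and 2 the difference was 2.71 points.

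**Figure D2:**
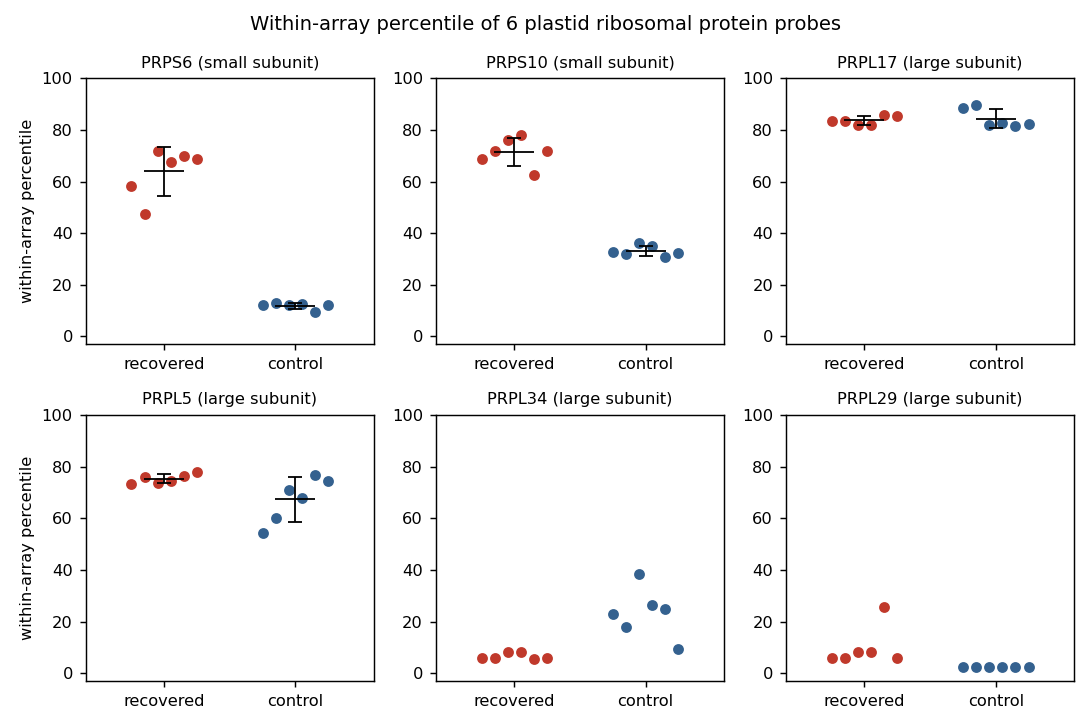
Within-array percentile (vertical axes, 0 to 100 among the 3439 probes of an array) of each of the 6 probes in the 6 recovered and 6 control samples (points, samples 1 to 6 from left to right), with mean and SD as black bars for the 4 probes above 0 on all arrays. PRPS6 and PRPS10 stand above 47 in all recovered samples and below 37 in all control samples, while PRPL17 and PRPL5 overlap between groups.

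PRPL34, a small protein of the large subunit, was listed at 0 on all 6 recovered arrays. On the control arrays it had intensities of 0.254, 0.209, 0.437, 0.326, 0.297 and 0.127, all above 0 and with a more than 3-fold range within the group. The difference of the mean intensities had an exact two-sided permutation p of 0.00216, the smallest that 6 against 6 samples can give. Its percentile was 5.63 to 8.19 in recovered samples, the shared position of the probes listed at 0, and 9.37 to 38.5 in control samples, a difference of -16.6 points (SE 3.80, limma adjusted p = 0.00260). The size depended on where zeros were placed, and with zeros at the lowest position it was -23.2 points (adjusted p = 0.000264). The loss of all signal was shared by 68 of the 3439 probes (1.98%), which were above 0 on every control array and at 0 on every recovered array. No fold change is given against values of 0.

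PRPL29, whose bacterial counterpart lies at the exit of the peptide tunnel, gave almost no signal. It was listed at 0 on every control array and on every recovered array except that of sample 5, where it had an intensity of 0.0363. The exact two-sided permutation test of the mean intensity gave p = 1. In all, 138 probes (4.01%) were at 0 on every control array, and 105 of them (3.05% of all probes) were above 0 on at least 1 recovered array. Its percentile was 5.69 to 8.19 on the recovered arrays without signal and 25.8 on that of sample 5, against 2.23 to 2.34 on control arrays. The difference of 7.68 points passed limma's test (adjusted p = 0.0479), but the shared position of the probes at 0 rises with their number, and when zeros were given the lowest position it was 4.30 points (adjusted p = 0.394). Without recovered sample 5 all remaining arrays listed PRPL29 at 0, and a difference of 4.51 points still passed (adjusted p = 0.00126), which is a difference in the number of zeros between the arrays and not in the probe. Whether the transcript was absent or the probe failed was not tested.

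Read against all probes, the calls in deposited intensity were no more frequent among the members. Limma called 3 of the 4 members above 0 on all arrays lower and none higher, where 75.5% of the 2409 tested probes were lower and 9.88% higher. The members' median log2 difference was -0.87, against -1.58 for all tested probes. In percentiles 3 of 6 members were called higher, 1 of them PRPL29, and 1 lower, where 36.0% and 27.8% of all 3439 probes were called higher and lower. The groups did not overlap in deposited intensity for PRPL17, PRPL5 and PRPL34, all lower in recovered samples, as were 69.1% of all probes (5.15% were higher without overlap). In percentiles PRPS6 and PRPS10 were higher and PRPL34 lower without overlap, as were 29.6% and 20.2% of all probes. The positions of PRPL29 did not overlap either, but 5 of its 6 recovered values and all its control values were the shared position of zeros, so it is not counted as a rise of the probe. The members are few and the counts are given as a description.

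Scalings that bring the arrays to a common level moved all 4 members above 0 upward. After quantile normalization limma called PRPS6 and PRPS10 higher and no member lower (37.5% and 31.1% of tested probes). Median centring, which adds the same amount to every probe's difference, gave 4 members higher and none lower (45.0% and 27.8% of probes). The median log2 difference of all tested probes was then 0.35, beside 0.69 for PRPL17 and 0.54 for PRPL5. Cyclic loess gave PRPS6 and PRPS10 higher and PRPL17 lower (31.6% and 32.2% of probes). The median probe was at 0.08 after quantile normalization and at -0.07 after cyclic loess. PRPS6 was the member with the largest log2 difference on each of these scales, from 2.20 to 2.61.

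The size of a deposited difference depended on how bright a probe was, and the members differed in brightness. When the 2409 tested probes were cut into 10 parts by their mean log2 intensity over all samples, the median log2 difference was between -2.53 and -2.43 in the 4 dimmest parts and 0.42 in the brightest. PRPS6, in the second part from the dim end, was at 0.27 where the median probe of that part was at -2.49 and the upper quartile at -1.54. PRPS10, in the fifth part, was at -0.50 where the median was -2.01 and the upper quartile -1.12. PRPL5, in the seventh, was at -1.39 beside a median of -1.40. PRPL17, in the ninth, was at -1.24 where the median was -0.32 and the lower quartile -0.95. Both small subunit probes thus held their signal better than most probes of like brightness, PRPL5 sat at the middle, and PRPL17 lost more than most. The background of the arrays is unknown, and its part in the values of the dim probes was not tested.

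**Figure D3:**
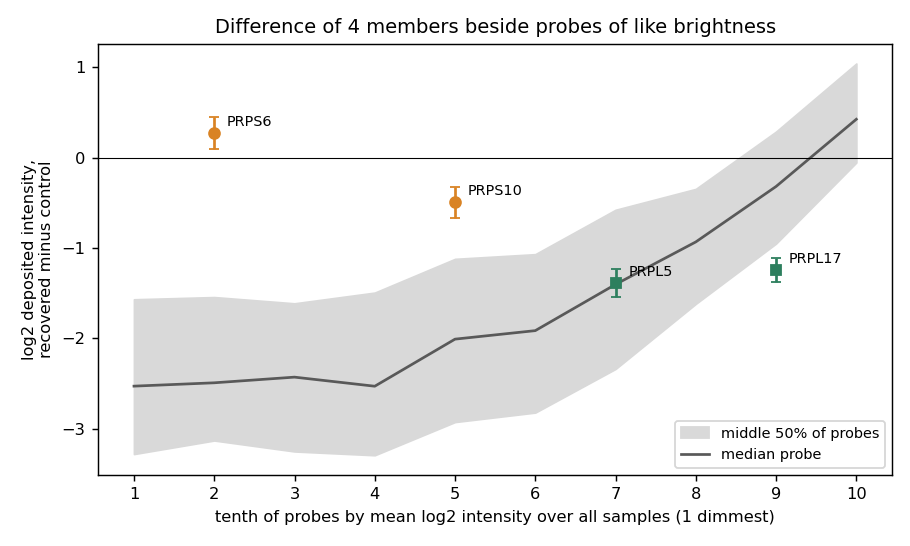
Log2 difference of deposited intensity, recovered minus control (vertical axis), for 10 equal parts of the 2409 probes above 0 on all arrays, from dimmest to brightest (horizontal axis); the line is the median probe and the band the middle 50% of probes, and points with SE bars are the 4 members. PRPS6 (0.27) and PRPS10 (-0.50) lie above the band, PRPL5 (-1.39) on the line and PRPL17 (-1.24) below the band.

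Small and large subunit members were next set side by side on the same arrays. The mean percentile of the 2 small subunit probes was 59.7 to 74.0 in recovered samples and 20.2 to 24.2 in control samples. That of the 4 large subunit probes was 42.2 to 48.4 in recovered and 42.0 to 48.4 in control samples. The small subunit mean exceeded the large subunit mean by 23.9 ± 6.08 points in recovered samples and lay 21.8 points below it in control samples (difference -21.8 ± 2.71; SD, n = 6 each), so the order turned over on all arrays. This turn rested on the 2 probes with zeros. With PRPL34 and PRPL29 left out, the small subunit mean was below the large subunit mean in both groups, with differences of -11.7 ± 6.22 points on recovered and -53.4 ± 3.57 points on control arrays. The small subunit mean thus moved up relative to the large subunit mean with either set of members, and these means are descriptions of chosen probes with no test. All probes were also cut into 10 parts by mean percentile. The middle 50% of differences ran from -17.1 to 20.9 points in the part of PRPS6 and -27.7 to 21.6 in that of PRPS10. It ran from -17.5 to 20.8 for PRPL5, -7.84 to 13.3 for PRPL17 and 3.11 to 10.6 for PRPL34 and PRPL29. How far the starting position bears on the contrast was not tested.

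**Figure D4:**
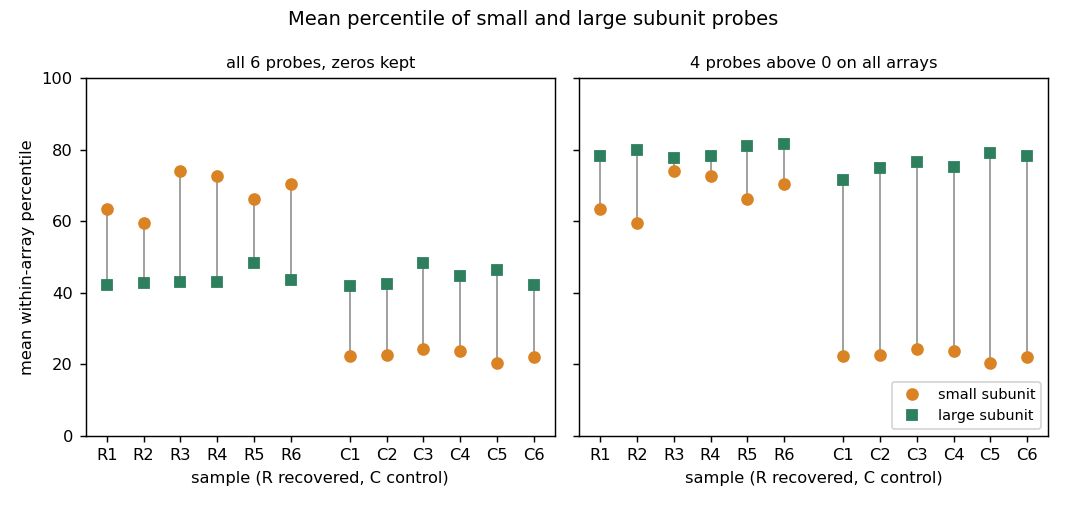
Mean within-array percentile (vertical axes) of the small subunit probes (circles) and large subunit probes (squares) in each recovered (R) and control (C) sample (horizontal axes), for all 6 probes on the left and for the 4 probes above 0 on all arrays on the right. The small subunit mean is 59.7 to 74.0 in recovered and 20.2 to 24.2 in control samples, and it lies above the large subunit mean in recovered samples only when the probes with zeros are kept.

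The log2 ratio of a pair of probes on the same array does not change when a whole array is scaled by a factor, and it was compared for the 6 pairs among the 4 members above 0 (exact two-sided permutation tests, adjusted over the 6 pairs). The ratio of PRPS6 to PRPL5 ran from -1.58 to -0.17 on the log2 scale in recovered samples and from -2.98 to -2.13 in control samples. It was thus higher in every recovered sample, by 1.66 (a 3.16-fold change, exact permutation, adjusted p = 0.00649). The ratio of PRPS6 to PRPL17 was also higher in every recovered sample, by 1.51 on the log2 scale (adjusted p = 0.00649, exact permutation).

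The ratios of PRPS10 changed less. The ratio of PRPS10 to PRPL5 was -0.26 ± 0.508 in recovered and -1.15 ± 0.301 in control samples on the log2 scale, a difference of 0.89 (exact permutation, adjusted p = 0.0130, n = 6 each), and that of PRPS10 to PRPL17 differed by 0.75 (adjusted p = 0.0286, exact permutation), both with overlapping groups. So all 4 ratios of a small to a large subunit probe were higher in recovered samples. They share the same 4 probes and are not independent. In deposited log2 difference, 88.9% of the 2409 tested probes were below PRPS6 and 74.5% below PRPS10. Mean log2 ratios of these 2 probes to most tested probes were thus higher too. For PRPL17 and PRPL5 the shares were 58.1% and 54.8%. Quantile normalization and cyclic loess are not one factor per array and did change the ratios. In this order, the log2 differences were 2.36 and 2.48 for PRPS6 to PRPL5, 2.80 and 3.08 for PRPS6 to PRPL17, 1.19 and 1.52 for PRPS10 to PRPL5, and 1.64 and 2.12 for PRPS10 to PRPL17.

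Within the subunits, the ratio of PRPS6 to PRPS10 differed by 0.77 on the log2 scale (adjusted p = 0.0130, exact permutation), with overlapping groups, and by 1.17 and 0.96 after quantile normalization and cyclic loess. The small subunit probes were therefore unequal too. The ratio of PRPL17 to PRPL5 was 0.87 ± 0.103 in recovered and 0.73 ± 0.537 in control samples, and the difference of 0.15 did not pass (adjusted p = 0.526, exact permutation, n = 6 each). With consecutive samples averaged there were 3 values a group, for which the smallest exact p is 0.1, and the groups then overlapped for PRPS10 to PRPL17 and for PRPL17 to PRPL5 and for no other pair. These ratios were chosen after the data were seen, and a ratio shows that 2 probes changed unequally, not which of them changed.

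Samples of a group differed in a way the labels do not give. Consecutive samples are 1 and 2, 3 and 4, and 5 and 6. Over the 2409 tested probes, log2 deviations from the group mean correlated at 0.843 to 0.927 between consecutive control samples. Other control pairs gave -0.699 to -0.0181. Consecutive recovered samples gave -0.154 to 0.0278 and other recovered pairs -0.295 to -0.158. Deviations from a mean of the same 6 samples correlate negatively by construction, even between unrelated samples. A negative value is therefore not by itself a sign of opposed samples. For PRPL5 consecutive control samples were 0.0692 to 0.181 apart on the log2 scale, against 0.157 to 0.815 for other control pairs. For PRPS6 these distances were 0.118 to 0.361 and 0.0363 to 0.441. For PRPL17 consecutive recovered samples were 0.00665 to 0.0242 apart, closer than any other pair of recovered samples (0.181 to 0.449). For PRPS6 and PRPS10 consecutive recovered samples were less alike, with distances of up to 0.461 and 0.657. If consecutive samples share a source, fewer than 6 samples a group are independent. With consecutive samples averaged first, PRPL17 (adjusted p = 0.00170) and PRPL5 (adjusted p = 0.00148) were still called lower in deposited intensity, and PRPS6 (adjusted p = 0.00120), PRPS10 (adjusted p = 0.000717) and PRPL34 (adjusted p = 0.0268) kept their calls in percentiles by limma. By this fit 70.2% of tested probes were lower and 6.64% higher in deposited intensity, and 26.2% were higher and 21.8% lower in percentiles.

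Over the 12 samples the percentiles of PRPS6 and PRPS10 correlated at r = 0.959, a value set by the difference between the groups: their deviations from the group means correlated at 0.0781. For PRPL17 and PRPL5 the deviations correlated at -0.745, with control samples 1 and 2 high for one and low for the other. These correlations are over 12 points, of which consecutive samples may not be independent, and they are given as a description with no test.

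Among the 686 other single-gene probes, those whose percentile followed a member most closely over the 12 samples were named by rule. For PRPS6 they were AT5G04600 (Pearson r = 0.990) and AT1G50000 (r = 0.988), and for PRPS10 they were AT2G25830 (r = 0.994) and AT4G24930 (r = 0.987). AT2G25830 stood at the 62.8th percentile in recovered and the 14.6th in control samples, much as the small subunit probes did. For PRPL5 they were AT2G04790 (r = 0.953) and AT2G25870 (r = 0.950), which like PRPL5 varied widely among control samples, with SDs of 18.4 and 23.1 points there. For PRPL17 (AT1G50390, r = 0.886, and AT2G35490, r = 0.857) and PRPL34 (AT3G47650, r = 0.882, and AT1G35510, r = 0.879) the likeness was lower. With the group means taken out, the deviations of these probes and their member correlated at 0.877 and 0.866 for PRPS6, 0.826 and 0.843 for PRPS10, 0.932 and 0.925 for PRPL5, 0.897 and 0.880 for PRPL17, and 0.658 and 0.611 for PRPL34, in the order named. For PRPL34 all 6 recovered values are the shared position of zeros, so its deviations there follow the number of zeros on each array and not the probe. Its matched probes AT3G47650 and AT1G35510 differed between the groups by only -3.81 and -1.94 points. The probes were picked as the most alike of 686, and consecutive samples may not be independent, so these values are a description.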

How the data were processed

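The authors deposited a linear intensity for each probe in each sample, in arbitrary units, and no source used here gives their background correction, scaling or handling of zeros. Samples were grouped by the growth conditions in the labels. Probes were named through the platform annotation only where it gives a single gene, and the names of the members are those in use for these loci, since the TAIR10.1 gene table lists them by locus alone. No protein, promoter or probe sequence was used here.

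From the deposited values, log2 intensities of the 2409 probes above 0 on all arrays and within-array percentiles of all 3439 probes were each compared between the groups with limma 3.58.1 in R 4.3.3 (lmFit and eBayes, two-sided, no block), recovered minus control, with Benjamini-Hochberg adjustment over all probes tested and a threshold of 0.05. Single values were compared with exact two-sided permutation tests (scipy 1.17.1). The fits were also run on simulated data with independent samples, no zeros and no shift of whole arrays between groups. That run cannot show how the fits perform with the shift and the alike consecutive control samples of the real data. The number of arrays limits the precision.

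Members, lists and alternatives were chosen with earlier results of these data known. Genes named are the 6 members, any single-gene probe of the wider lists, and for each member above 0 on at least 6 arrays the 2 probes most correlated with it. The replicate numbers did not pair the samples. Alternatives covered scaling, zeros, a filter on dim probes, the probes ranked, array weights, averaging, blocks, a permutation test per probe and leaving out samples.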

Additional observations from a re-analysis of the deposited data

Results flagged for a closer look

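In deposited intensity or percentile, 3 of 22 groups of 6 samples had 1 sample far from the other 5. Of the 3, 2 are the same PRPL29 sample on both scales. Chance gives about 1 in 20 groups if samples are independent and normally distributed. For PRPL29 the other 5 recovered values are zeros, so any intensity above 0 would be flagged and this rate does not hold. For PRPS6, control sample 5 stood at the 9.51th percentile, and the other control samples lay between 12.01 and 13.1, a gap far smaller than the difference between the groups. For PRPL29, recovered sample 5 had an intensity of 0.0363 while all other arrays listed the probe at 0, and it stood there at percentile 25.8, where the other recovered samples lay between 5.69 and 8.19. Where 2 samples stand off jointly, as control samples 1 and 2 do for PRPL17, this rule is blind to it.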

How the results depend on the processing

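The scaling of deposited intensities set the sign for PRPS10 and PRPL5. PRPL17 turned positive only with median centring and stayed negative with quantile normalization (-0.19) and cyclic loess (-0.54). PRPS6 was positive as deposited and in every scaling. With quantile normalization 903 probes were higher and 750 lower, among the members 2 and 0, and log2 differences changed sign for PRPS10 (1.45) and PRPL5 (0.25). Median centring, which shifts all members alike and put the median probe at 0.35, gave 1085 and 669 probes, 4 members higher and 0 lower, with PRPS10 at 1.43, PRPL17 at 0.69 and PRPL5 at 0.54. Cyclic loess gave 761 and 775 probes, 2 members higher and 1 lower, and turned PRPS10 (1.59) and PRPL5 (0.062). Against these, 238 probes were higher and 1819 lower as deposited. PRPS6 was called higher in all 3 scalings (2.20 to 2.61). Without the dimmer 50% of probes, PRPS6 and PRPS10 among them, 743 were lower; fewer were tested, and calls of lower intensity were less frequent among the brighter probes of the main comparison (60.9% against 90.1% of the dimmer ones). Leaving out 1 sample or consecutive pair gave 0 to 1 members higher in deposited intensity, with 220 to 235 probes higher and 1749 to 1841 lower.

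In percentiles, ranking only probes above 0 left 0 members lower, since PRPL34 was not ranked, and ranking only single-gene probes gave 242 probes higher and 182 lower, since fewer were ranked; PRPL5 then passed (9.65 points, adjusted p = 0.0340). PRPL17, which never passed, was at -2.33 points with only probes above 0 ranked and at 0.36 with only single-gene probes ranked. It was at 0.62 with array weights and at -1.27 to 0.37 without 1 sample. Without 2 consecutive samples it was at -1.97 to 1.66 (0.18 without recovered samples 3 and 4). PRPS6 (49.2 to 57.6 points), PRPS10 (35.7 to 40.6) and PRPL34 (-19.7 to -12.1) kept their calls when samples were left out. PRPL29 missed the threshold in 12 of 18 such cases, and also with only single-gene probes ranked (7.39 points, limma adjusted p = 0.0769). The log2 ratio of PRPL17 to PRPL5 was -0.44 after quantile normalization and -0.60 after cyclic loess (exact permutation, adjusted p = 0.271 and 0.00866); the cause was not tested. The unknown background limits every dim probe.

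A shared replicate number did not pair samples across groups, since the correlation of same-numbered deviations was -0.0106 to 0.0958 in log2 intensity and 0.0201 to 0.133 in percentiles. The replicate block gave 237 higher and 1813 lower probes in deposited intensity, 1183 and 937 in percentiles, and among the members' calls it changed that of PRPL29 (adjusted p = 0.0649). Consecutive samples as a random block lost PRPS10 in deposited intensity (adjusted p = 0.0639) and PRPL29 in percentiles (adjusted p = 0.216).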
